A study of Mus musculus with 9 samples.

Results

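Cells that carried transcripts of the GABA machinery but none of the vesicular glutamate transporter Slc17a7 made up 111 of the 29571 cells in the table. They were chosen from the values themselves: a cell belonged if it came from 1 of the first 3 library codes in column order and held at least 1 UMI (unique molecular identifier, 1 captured RNA molecule) summed over Gad1, Gad2 and Slc32a1, with 0 UMIs of Slc17a7. Library 1 gave 36 of them, library 2 gave 34 and library 3 gave 41, out of 8495 cells in those libraries (1.31%, exact 95% binomial interval 1.08 to 1.57). The 3 codes were taken as cortex from their place in the column order, which is an inference. The labels do not tie any library code to a brain region or a sleep group, so no library is given one here, and the cells are called GABAergic-gene cells.

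The series holds single-cell suspensions of cortex, hypothalamus and brainstem from C57BL/6 mice of 9 to 11 weeks, in 3 sleep groups. The mice were wild type, with no transgene stated, and the study's methods name the substrain C57BL/6 J. The groups were normal sleep (NS), sleep deprivation for 12 h from lights on (SD), and the same deprivation followed by recovery sleep (RS), whose length is given as 24 h in one place and 12 h in another. All brains were taken at ZT12, that is at lights off. Tissue was dissociated with papain, debris was reduced with myelin removal beads, and each of the 9 libraries pooled 3 mice, so there is 1 library per region and group and no replicate. For that reason no test was run: intervals below cover counting error only, and differences between libraries have no replicate check.

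GABA is the main inhibitory transmitter of the forebrain. Gad1 and Gad2 encode the enzymes that make it from glutamate, and Slc32a1 loads it into synaptic vesicles. In the cerebral cortex most GABA neurons are local interneurons, which arise before birth in the medial or the caudal ganglionic eminence and are usually sorted by the peptides and calcium-binding proteins they make, among them somatostatin (Sst), neuropeptide Y (Npy), vasoactive intestinal peptide (Vip) and parvalbumin (Pvalb).

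The sequences before the start sites of 3 genes are shown because the results turn on them: Gad1 admitted the most cells, and Npy and Sst were the peptide genes with the highest ratios over Slc17a7 cells. Each run is the 250 bases upstream of the RefSeq start on GRCm38.p6, written 5′ to 3′ on the gene's own strand, with matches to 3 motifs in capitals. The Gad1 run lies at chr2:70561879-70562128 on the plus strand, the Npy run at chr6:49822460-49822709 on the plus strand and the Sst run at chr16:23890845-23891094 on the minus strand.
Gad1: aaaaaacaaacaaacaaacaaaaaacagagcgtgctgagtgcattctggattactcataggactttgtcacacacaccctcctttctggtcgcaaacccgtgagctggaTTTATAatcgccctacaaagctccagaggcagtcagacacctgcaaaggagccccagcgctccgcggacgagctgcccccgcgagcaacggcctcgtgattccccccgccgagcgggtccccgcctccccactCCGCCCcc
Npy: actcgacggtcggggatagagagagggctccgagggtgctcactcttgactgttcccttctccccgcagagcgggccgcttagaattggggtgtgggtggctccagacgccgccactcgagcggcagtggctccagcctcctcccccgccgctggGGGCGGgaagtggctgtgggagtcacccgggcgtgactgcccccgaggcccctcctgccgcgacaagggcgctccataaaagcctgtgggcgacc
Sst: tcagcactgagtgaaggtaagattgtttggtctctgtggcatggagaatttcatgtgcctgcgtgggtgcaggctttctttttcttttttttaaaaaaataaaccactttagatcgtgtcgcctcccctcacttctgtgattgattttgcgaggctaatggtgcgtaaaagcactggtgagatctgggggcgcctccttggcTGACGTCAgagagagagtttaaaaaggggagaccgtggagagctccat
The motifs searched, on both strands, were the cyclic AMP response element, TGACGTCA, which is its own reverse complement, the box bound by the general factor TBP, spelled TATAAA, and the GC box, spelled GGGCGG. In the Sst run the capitals mark TGACGTCA, 48 to 41 bases before the start, a motif found in 1.55% of the 32851 promoter windows of the same length. In the Npy run they mark a GC box, 95 to 90 bases before the start. In the Gad1 run they mark 1 match to the TBP box, 141 to 136 bases before the start, and 1 to the GC box, 8 to 3 bases before it, both on the opposite strand and so shown as their reverse complements. A TBP box stood in 12.4% and a GC box in 32.7% of all windows. No matches overlap in the 3 runs shown. A match describes letters in the sequence and is neither a site nor a cause.

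The depth of the GABAergic-gene cells was low. They held 25712, 19563 and 52977 UMIs in libraries 1, 2 and 3, so that 1 UMI was worth 38.9, 51.1 and 18.9 CPM (UMIs scaled to the same total in each class). The median cell had 531.5, 430 and 1042 UMIs. Over the series, library medians ran from 402 to 1055 UMIs per cell, and 1105 of 29571 cells had a barcode that also occurred in another library, 4 of the 111 among them. Libraries 1 to 3 stood apart from the others in Slc17a7, which was found in 18.2%, 22.0% and 37.9% of their cells and in at most 0.862% of the cells of libraries 4 to 9.

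Gad1 was found in 74 of the 111 cells, Gad2 in 57 and Slc32a1 in 45. All 3 genes were found in 18 cells, while 28 cells had only Gad1, 22 only Slc32a1 and 14 only Gad2. These values chose the cells and are given as a description. Just inside the threshold were 51 cells with exactly 1 UMI over the 3 genes. A further 17 cells had 2 UMIs and 43 had 3 or more, up to 20. Just outside the rule were 18 cells with both a GABA gene and Slc17a7, of which 14 had 1 GABA-gene UMI and 4 had more GABA-gene UMIs than Slc17a7 UMIs.

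The cells were not all neurons by their other transcripts. At least 2 UMIs of a list of 20 pan-neuronal genes (Snap25, Syt1, Meg3 and others) were found in 92 of 111 cells (82.9%, 74.6 to 89.4), and 11 cells had none. This measure has a background: 15.6% of microglia-gated cells (13.4 to 18.0, median 349 UMIs) and 24.5% of endothelial-gated cells (21.8 to 27.3, median 617.5 UMIs) had 2 or more such UMIs. Among cells with 1 GABA-gene UMI, 32 of 51 reached 2 pan-neuronal UMIs (62.7%, 48.1 to 75.9), against 60 of 60 among those with 2 or more (100%, 94.04 to 100). When each cell was assigned to the marker list with the most UMIs in it, the pan-neuronal list led in 79 cells, the astrocyte list in 16, the endothelial list in 7, the microglia list in 5 and the pericyte and smooth muscle list in 4, and in 6 cells the pan-neuronal list lay within 2 UMIs of the best other list. Of the 32 cells led by another list, 29 had a single GABA-gene UMI. Astrocyte-list UMIs were 1.28% of all UMIs in cells with 1 GABA-gene UMI and 0.263% in cells with 2 or more. The label of cortical interneurons thus held less well for the single-UMI cells, and several results below are also given for the 60 cells with 2 or more GABA-gene UMIs.

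**Figure D1:**
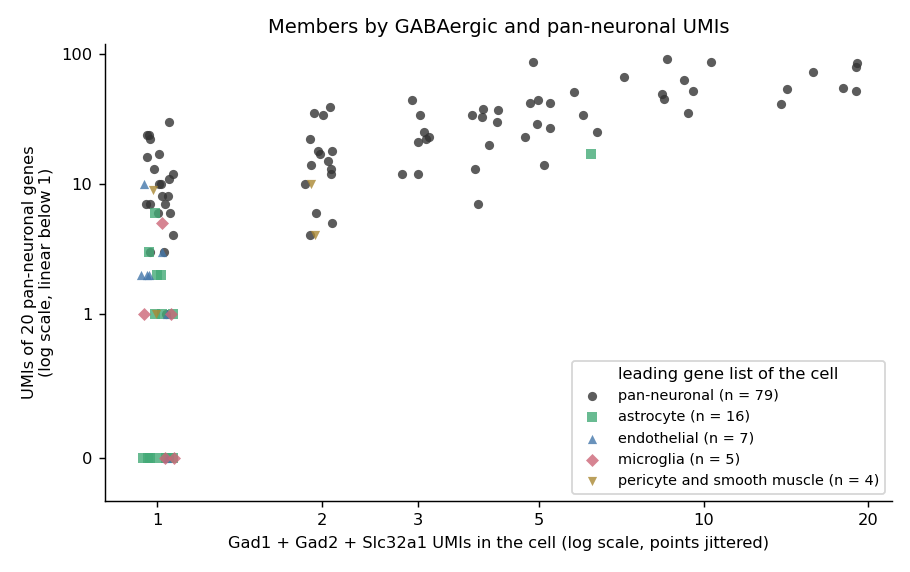
Each point is 1 of the 111 GABAergic-gene cells, with its UMIs of Gad1, Gad2 and Slc32a1 together on the x axis (log scale) and its UMIs of 20 pan-neuronal genes on the y axis (log scale, linear below 1); marker shape and colour give the gene list with the most UMIs in the cell. Non-neuronal lists led in 29 of the 51 cells with 1 GABA-gene UMI and in 3 of the 60 with 2 or more.

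Free RNA can put a single UMI into any droplet. Among 999 cells of libraries 1 to 3 with 5 or more microglia-list UMIs (median 349 UMIs), 7 met the rule (0.701%, 0.282 to 1.44) and 0 met it with 2 or more GABA-gene UMIs. Among 998 endothelial-gated cells (median 618.5 UMIs), 10 met it (1.00%, 0.482 to 1.83) and 3 met it with 2 or more. Among 2741 cells with 5 or more pan-neuronal UMIs, 80 met it (2.92%, 2.32 to 3.62), 58 of them with 2 or more. The neuronal class lay above both background classes at 1 UMI and again at 2 UMIs, where its share was 2.12% (1.61 to 2.73) against at most 0.876% in endothelial-gated cells. Its cells were also deeper, with a median of 1180 UMIs.

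Npy was the peptide seen most often. It was found in 15 of 36 cells in library 1, 13 of 34 in library 2 and 17 of 41 in library 3, or 45 of 111 (40.5%, 31.3 to 50.3), at 311, 109 and 448 UMIs. The shares of cells had intervals that overlapped widely, while the summed levels did not. These levels were 12095.5 CPM (10788 to 13517), 5572 (4575 to 6721) and 8457 (7691 to 9277) in libraries 1, 2 and 3, 2.17-fold from lowest to highest. Single cells weighed on them, which the intervals do not cover: 1 cell held 97 of the 311 UMIs of library 1 and 1 held 66 of the 109 of library 2. In the 2187 Slc17a7 cells of the same libraries (Slc17a7 present, no GABA-gene UMI, median 1292 UMIs) Npy was found in 0.960%, and in microglia-gated cells in 0.605%, so it lay above background although the Slc17a7 cells were deeper. The summed level was 8834 CPM (95% Poisson interval 8256 to 9442) against 6.27 CPM (3.93 to 9.49). With cells thinned to 500 UMIs, and the 33 GABAergic-gene cells (13 of library 1 and 20 of library 2) and 279 Slc17a7 cells under that depth left out, Npy remained in 30 of 78 cells (38.5%, 27.7 to 50.2) and in 8 of 1908 Slc17a7 cells (0.419%). The share rose with the number of GABA-gene UMIs, from 7 of 51 cells at 1 UMI to 8 of 17 at 2 UMIs and 30 of 43 at 3 or more. The median cell had 530 UMIs at 1 GABA-gene UMI, 539 at 2 and 1337 at 3 or more. A non-neuronal list led in 29 of 51, 2 of 17 and 1 of 43 of these cells. The parts of depth and of non-neuronal cells in the result were not tested.

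Sst, which marks another large interneuron class, was found in only 9 of 111 cells (8.11%, 3.77 to 14.8), 4, 3 and 2 of them in libraries 1, 2 and 3. It gave 126, 15 and 107 UMIs there. Its level was 4900, 767 and 2020 CPM, but single cells set it, because 1 cell of library 1 held 88 UMIs and 1 cell of library 3 held 78. In Slc17a7 cells Sst was found in 0.869% at 9.11 CPM, and in microglia-gated cells in 0.504%.

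Both peptides were concentrated in a few cells. The 8 cells with 40 or more Npy UMIs held 44 to 108 each and 75.2% of all Npy UMIs, while the next cell had 21. The 6 cells with 10 or more Sst UMIs held 11 to 88 each and 97.6% of all Sst UMIs, and the next had 3. The groups were separate: the 8 cells high in Npy had 0 Sst UMIs, whereas all 6 cells high in Sst also held 1 to 17 Npy UMIs. These cutoffs were set after the values were seen, so what follows is a description of 14 cells.

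Other genes were counted in the same cells. Kit, a receptor tyrosine kinase, was found in 7 of the 8 cells high in Npy (87.5%, 47.3 to 99.7) and in 0 of the 6 high in Sst (0 to 45.9), with intervals apart. For the other genes named here the intervals overlapped. Lamp5, a membrane protein that marks one caudal interneuron class, was found in 5 of 8 and 0 of 6, and Erbb4, the neuregulin receptor, in 4 of 8 and 0 of 6. In the other direction Crhbp, which binds corticotropin-releasing hormone, was found in 0 of 8 and 5 of 6, and Rab3b, a vesicle GTPase, in 3 of 8 and 5 of 6. Cort, which encodes the somatostatin relative cortistatin, was found in both, in 3 of 8 and 4 of 6. Of other medial-list genes, the transcription factors Lhx6 and Satb1 were found in 0 of 8 and in 2 and 3 of the 6 cells high in Sst, Sox6 in 0 of either, and Erbb4, given above, is also on that list. Other caudal-list genes were mostly rare in the cells high in Npy. Reln was found in 4 of 8 and 1 of 6, and Ndnf and Prox1 in 2 of 8 and 0 of 6. Adarb2, Htr3a and Vip were found in 1 of 8 and 0 of 6, and Cnr1 in 1 of 8 and 1 of 6. Npas1 was found in 0 of 8 and 1 of 6, and Cck, Nr2f2 and Calb2 in 0 of either. Median depth was 1869.5 and 1304 UMIs, respectively.

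**Figure D2:**
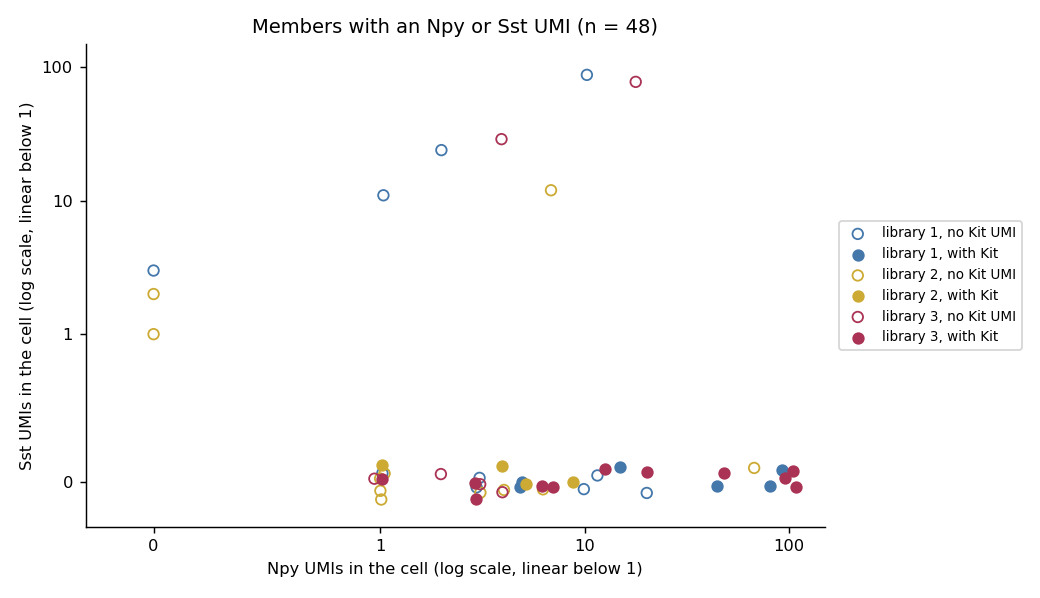
Npy UMIs (x axis) and Sst UMIs (y axis), both on log scales that are linear below 1, for the 48 GABAergic-gene cells with a UMI of either gene; colour gives the library, filled points carry Kit, and points are shifted slightly so that they can be told apart. Cells high in Npy lie along the bottom and are mostly filled, and no filled point has an Sst UMI.

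Over all 45 cells with Npy, Kit was found in 21 (46.7%, 31.7 to 62.1), against 6 of 66 cells without Npy (9.09%, 3.41 to 18.7), with median depths of 924 and 559.5 UMIs. A non-neuronal list led in 3 of the 45 and in 29 of the 66. In the cells led by the pan-neuronal list, an alternative added after seeing the data, Kit was found in 20 of 42 with Npy (47.6%, 32.0 to 63.6) and in 6 of 37 without (16.2%, 6.19 to 32.0), and these intervals just overlap. Reln, which encodes the matrix protein reelin, was found in 14 of 45 and 6 of 66, and Ndnf, a secreted factor of layer 1 interneurons, in 11 of 45 and 4 of 66; in the pan-neuronal-led cells they were found in 14 of 42 and 6 of 37, and in 11 of 42 and 4 of 37, with overlapping intervals. Sst was found in 6 of 45 and 3 of 66. Lhx6 and Nos1, the neuronal nitric oxide synthase, were found in 4 cells each, all of them with Npy. Among the 9 cells with Sst, Npy was found in 6 (66.7%, 29.9 to 92.5), against 39 of 102 without Sst (38.2%, 28.8 to 48.4), and these intervals overlap.

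Pvalb and Vip were sparse. Pvalb was found in 9 cells (2, 5 and 2 by library) with 20 UMIs in all, and Vip in 5 cells (1, 2 and 2) with 31 UMIs, 18 of them in 1 cell. No cell held both Vip and Sst or both Vip and Pvalb. Of the 111 cells, 35 had Npy alone among these 4 genes, 6 Pvalb alone, 5 Npy with Sst, 3 Sst alone, 3 Vip alone, 2 Npy with Vip, 2 Npy with Pvalb and 1 Npy with Sst and Pvalb, and 54 had none. Of these 54 cells, 27 were led by a non-neuronal list, and their median depth was 559.5 UMIs.

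The cells were compared with the Slc17a7 cells of the same libraries gene by gene. A gene was called higher or lower where its ratio of CPM, with 10 CPM added to both sides, was at least 2-fold the same way in each of libraries 1, 2 and 3. Of 10649 genes with 20 or more UMIs over both classes, 188 were higher (1.77%) and 810 lower (7.61%). The lower calls are the weaker ones, because 586 of the 810 genes had 0 UMIs in the GABAergic-gene cells at this depth. Those whose pooled 95% Poisson intervals also lay apart numbered 172 higher (1.62%) and 247 lower (2.32%), a criterion chosen after seeing the data. All genes named below as called in this comparison, and not only in an alternative setting, met it unless stated.

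Among the 15 highest ratios were those of Npy, Sst, Kit, Erbb4, Vip, Cort, Nxph1, Ndnf, Reln, Pvalb, Dner, Rab3b, Sema5a and Hapln1. On the CPM + 10 scale Npy was 544-fold higher, Sst 133-fold and Kit 60.8-fold. Kit was found in 6, 7 and 14 cells of libraries 1, 2 and 3, at 700.1, 869 and 642 CPM, against 6 UMIs in all 2187 Slc17a7 cells. Erbb4 was found in 8, 5 and 16 cells, at 389, 307 and 547 CPM, and was 43.1-fold higher. Nxph1, a secreted neurexin ligand, was found in 9, 3 and 5 cells and was 25.98-fold higher. Dner, a Notch ligand of neurons, was found in 14, 6 and 20 cells and was 17.4-fold higher, although 7.45% of Slc17a7 cells also held it. Hapln1, a link protein of the extracellular matrix nets around some interneurons, was found in 3, 3 and 9 cells and was 12.1-fold higher. The 3 libraries overlapped in their intervals for Kit and Erbb4, and in no library was either gene near its level in Slc17a7 cells. In the 32 cells of at least 1000 UMIs, Kit, Nxph1 and Hapln1 were among the 7 of these 15 genes that were no longer called. Kit was still found in 14 of the 32 (43.8%, 26.4 to 62.3), against 24.3% of all 111 cells, so its call was lost without a lower share.

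**Figure D3:**
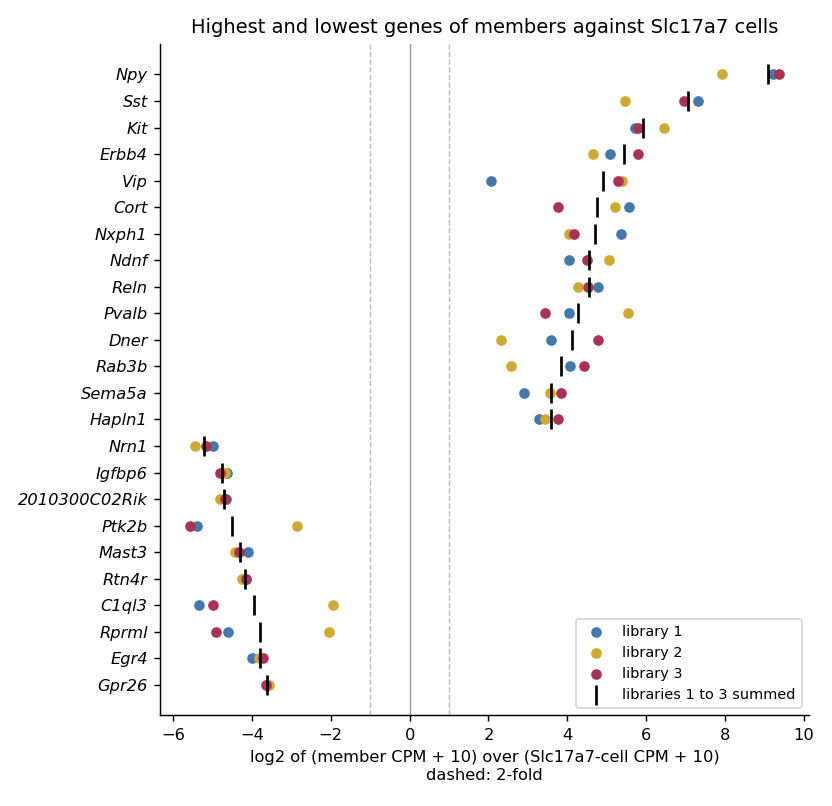
Log2 ratio of CPM + 10 in GABAergic-gene cells over CPM + 10 in Slc17a7 cells (x axis) for 14 of the 15 highest and the 10 lowest called genes (y axis); dots are libraries 1, 2 and 3, bars the 3 libraries summed, dashed lines 2-fold. Npy has the highest summed ratio, 9.09, and Nrn1 the lowest, -5.20; Vip is the most uneven of the higher genes, with library 1 far below the other two.

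The 10 lowest ratios belonged to Nrn1, Igfbp6, 2010300C02Rik, Ptk2b, Mast3, Rtn4r, C1ql3, Rprml, Egr4 and Gpr26. Of these, 7 had 0 UMIs in the GABAergic-gene cells, and Ptk2b, C1ql3 and Rprml had 1 each, all in library 2. Nrn1, an activity-dependent growth factor of glutamatergic neurons, had 0 of 98252 UMIs, with an upper 95% Poisson bound of 37.5 CPM, against 358 CPM (338 to 378) in Slc17a7 cells. Both classes were chosen by Slc17a7, itself a gene of glutamatergic cortical neurons, so lower levels of such genes follow in part from that choice. Of 17 genes tested from a list for glutamatergic cortical neurons, 15 were lower, 13 with intervals apart, and 0 higher. Among them Nrgn, a postsynaptic calmodulin-binding protein, was at 377 CPM (265 to 519) against 4430 (4361 to 4501), and Camk2a at 224 CPM (140 to 339) against 1380 (1342 to 1420). The median log2 ratio of this list was -2.57, against -0.11 over all genes tested.

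The machinery around the transmitter was described from a list of 8 genes for the handling of GABA and its precursors, of which 7 were tested, 4 were higher and 0 lower (median log2 ratio 1.97). The shares over all genes were 1.77% higher and 7.61% lower. Abat, which breaks GABA down, was at 112 CPM (55.9 to 200.3) against 21.1 (16.6 to 26.5). Aldh5a1, the next enzyme of that path, was at 81.4 CPM (35.2 to 160.4) against 18.5 (14.3 to 23.6), and Slc38a1, a glutamine transporter, at 346 CPM (239.6 to 484) against 76.9 (68.0 to 86.6). The same 4 genes were called in the 60 cells with 2 or more GABA-gene UMIs.

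Genes of both interneuron lineages were present. Of a list of 17 genes of medial ganglionic eminence interneurons, 10 were tested and 7 were higher, among them Sst, Pvalb, Cort, Kcnc1, Erbb4 and Grin3a, with a median log2 ratio of 2.63. Of 16 genes of caudal ganglionic eminence interneurons, 8 were tested, 3 were higher (Vip, Ndnf and Reln) and 1 was lower, with a median of 3.13. The shares over all genes were 1.77% higher and 7.61% lower, so 1 lower gene of 8 is near the background. The lower one was Cck, a peptide of some interneurons that pyramidal cells also make: it was found in 11 cells (3, 4 and 4) at 163 CPM (93.1 to 264), against 64.2% of Slc17a7 cells at 1792 CPM (1748 to 1837). Microglia-gated cells held it in 5.14%, and with free RNA subtracted its level here was 0 CPM (0 to 15.4), so the Cck UMIs of these cells could not be told from background. Vip was not called at 2 or more GABA-gene UMIs, where it was seen in 2 of 60 cells. At least 1 UMI of both lists was found in 37 cells, of the medial list alone in 30, of the caudal list alone in 16 and of neither in 28, and 26 of those 28 had a single GABA-gene UMI.

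Some lineage genes were seen only in small numbers and fell below the 20-UMI filter. Tac1, the substance P precursor, was found in 6 cells with 17 UMIs, against 1 UMI in Slc17a7 cells. Pnoc, which encodes nociceptin, was found in 8 cells with 14 UMIs against 0, and Crhbp in 7 cells with 13 UMIs against 2. Adarb2 and Prox1 of the caudal lineage were found in 5 and 6 cells, and Adarb2 in library 3 alone. Dlx1, a homeobox gene of forebrain GABA neurons, had 20 UMIs in 0, 2 and 13 cells of libraries 1, 2 and 3, against 2 in Slc17a7 cells; because library 1 had none it was not called. Library 3 was the deepest, with 18.9 CPM per UMI. Genes of striatal and olfactory bulb neurons gave 0 higher and 1 lower (Foxp1) of 15 tested, with a median log2 ratio of 0.04. These counts are near the shares over all genes, 1.77% higher and 7.61% lower. Of 22 genes of diencephalic, midbrain and hindbrain GABA neurons only Gata2 was found, with 3 UMIs.

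**Figure D4:**
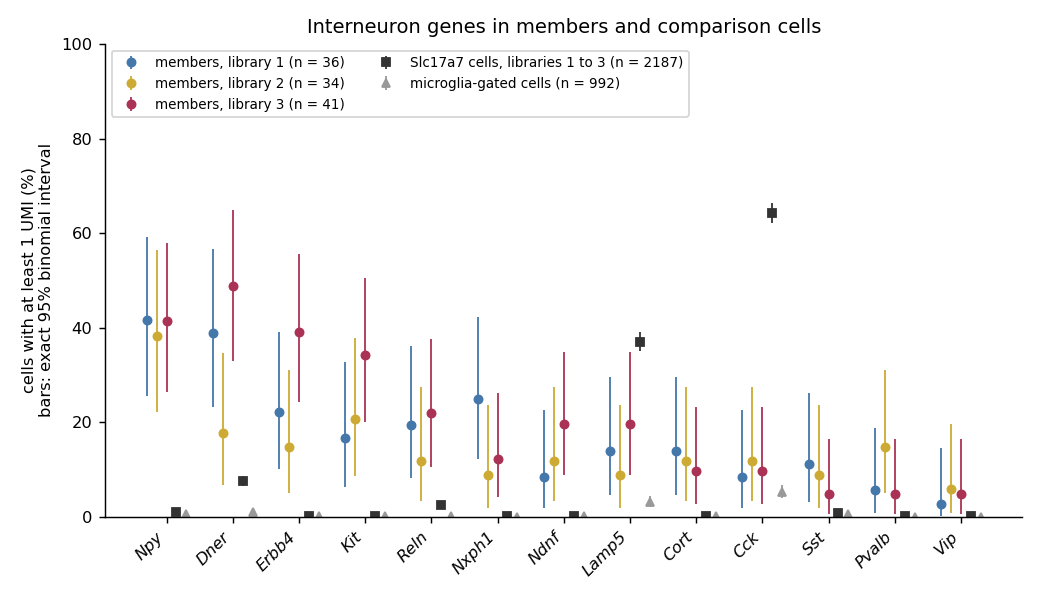
Share of cells with at least 1 UMI (y axis, percent, bars exact 95% binomial intervals) of 13 genes (x axis) in GABAergic-gene cells of libraries 1, 2 and 3, in Slc17a7 cells and in microglia-gated cells. Npy is near 40% in each library and Cck is the gene that Slc17a7 cells hold most, at 64.2%; Lamp5 is also found more often in Slc17a7 cells (37.0%).

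At the synapse most genes were not called, and the calls fell on some members of gene families and not on others. Of 21 genes of the synaptic vesicle cycle, 4 were higher (Syt2, Cplx1, Rab3c and Sv2a) and 2 lower (Stx1a and Sv2b). Over all genes 1.77% were higher and 7.61% lower, so 2 lower genes of 21 is near the background. The median log2 ratio of the list was -0.20, and 0.16 at 2 or more GABA-gene UMIs. Among the vesicle glycoproteins, Sv2a was at 1089, 1482 and 1019 CPM in libraries 1, 2 and 3, against 363, 381 and 362 in Slc17a7 cells. Its relative Sv2b was at 38.9, 102 and 37.8 CPM against 644, 653 and 590. Cplx1, a complexin that clamps release, was at 1089, 1329 and 642 CPM against 229, 275 and 267, while Cplx2 was not called. Stx1a, a plasma membrane SNARE, was at 71.3 CPM (28.6 to 147) against 433 (411 to 455). Rab3c was 6.70-fold higher. Calls for Cplx1, Rab3c, Sv2a, Stx1a and Sv2b also held at 2 or more GABA-gene UMIs, and Syt2, with 10 UMIs in 5 cells, did not; Vamp1 was called there instead.

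Of 14 voltage-gated channel genes tested, 3 were higher, among them Kcnc1, a potassium channel of fast-firing cells, at 467, 358 and 302 CPM against 105, 119 and 116, and Cacna2d2, a calcium channel subunit, at 91.6 CPM (41.9 to 174) against 9.40 (6.47 to 13.2). Of 13 genes of GABA-A receptor subunits and their anchor, Gabrg3 was higher, at 112 CPM (55.9 to 200.3) against 30.8 (25.2 to 37.1), and Gabra2 lower, with 2 UMIs; 1 lower gene of 13 is near the 7.61% lower over all genes. Of 9 ionotropic glutamate receptor genes, Gria1, Grin3a and Grik2 were higher and 0 were lower. Of 8 calcium-binding protein genes, Pvalb and Necab2 were higher and Calm2 lower. Over all genes 1.77% were higher and 7.61% lower, so 1 lower gene of 8 is also near the background. At 2 or more GABA-gene UMIs 2 channel genes were higher, Kcnc1 and Cacna2d2, and Grik2, Necab2 and Calm2 were not called. In cells of at least 1000 UMIs 0 channel genes were called, and Gabrg3, Gria1, Grik2, Pvalb, Necab2 and Calm2 were not called either, which left Grin3a higher and Gabra2 lower among the genes named here. Of 20 pan-neuronal genes, 0 were called either way, with a median log2 ratio of -0.03.

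Immediate early genes, which neurons switch on within minutes of strong activity, were low. Of 19 tested, 12 were lower, 7 of them with intervals apart (Fos, Junb, Egr1, Egr4, Arc, Homer1 and Bdnf), and 0 were higher, with a median log2 ratio of -1.86. Egr1 was found in 2, 3 and 2 cells of libraries 1, 2 and 3, at 71.3 CPM (28.6 to 147), against 532 CPM (508 to 556) in 39.9% of Slc17a7 cells. Arc had 1 UMI against 138 CPM (126 to 151) in Slc17a7 cells. For Fosb, Egr2, Npas4, Nr4a2 and Nr4a3, all at 0 UMIs, the difference was not detectable at this depth. The shares over all genes were 1.77% higher and 7.61% lower, and the counts of clock genes lay near them. Of 19 clock genes tested, Rora was higher, at 336 CPM (231 to 472) against 97.4 (87.3 to 108.3), and 0 were lower. These calls moved with the cells and the background taken. At 2 or more GABA-gene UMIs, 13 immediate early genes were lower, without Bdnf, and 3 clock genes (Ciart, Bhlhe40 and Rorb) were lower, where 10.7% of all genes tested were lower. In cells of at least 1000 UMIs, 11 immediate early genes were lower, without Fos, Homer1 and Bdnf, the same 3 clock genes were lower, and Rora was not called; 13.7% of all genes were lower there, so 3 of 19 clock genes lay near the background in both settings. With free RNA subtracted, 7 immediate early genes were lower, with Fos, Fosb, Junb, Egr2 and Nr4a2 no longer called, and 1 clock gene (Nr1d1) was lower, against 5.52% of all genes.

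Non-neuronal genes were also among the higher calls: 4 of 12 astrocyte genes, Aldoc, Slc1a3 and Gfap among them, Ctss and Siglech of 10 microglial genes and Tagln and Myl9 of 7 smooth muscle genes. Apoe, Mt1, Mt2 and Tsc22d3, which are strong in glia, were higher too. They are on a list of 14 genes made for the sleep groups. The study's text names most of these from its own samples, but not Mt2, Cirbp or Rbm3. In the 60 cells with 2 or more GABA-gene UMIs, 0 genes of the astrocyte and microglia lists and 0 of the 14 were called higher. There 0 smooth muscle genes were called either, but that list did not fall: its median log2 ratio was 2.08 over the 111 cells and 2.199 over the 60, and 122 of its 160 UMIs were in the 60 cells (1726 CPM against 1628 over all 111). Of 9 endothelial genes tested 0 were called, although 8 were at least 2-fold higher pooled over libraries; the median log2 ratio was 1.88, and 0.81 over the 60 cells, which held 82 of the 213 UMIs. Of the 15 highest genes, 14 stayed called in the 60 cells, Vip being the exception.

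Compared with cells that met the same rule in libraries 4 to 9, the cells of libraries 1 to 3 had a different gene makeup. The rule was met by 144, 105, 77, 54, 40 and 42 cells there, 462 in all, at medians of 598 to 1501.5 UMIs. Npy was found in 40.5% (31.3 to 50.3) in libraries 1 to 3 and in 4.33% (2.66 to 6.61) in libraries 4 to 9, where the highest was library 9 at 14.3%. Thinned to 500 UMIs per cell, with 33 and 49 shallower cells left out, the shares were 38.5% of 78 cells (27.7 to 50.2) and 3.63% of 413 (2.05 to 5.92). Kit was found in 24.3% and 2.38%, Erbb4 in 26.1% and 1.95%, and Ndnf in 13.5% and 1.08%. Cort was found in 13 of 111 and in 0 of 462, which allows a share of up to 0.649%, taking 3 counts as the limit for a count of 0. Thinned alike, Kit was in 17.9% (10.2 to 28.3) and 1.21% (0.394 to 2.80). The sets also differed in other ways: 60 of 111 and 190 of 462 cells had 2 or more GABA-gene UMIs. Thinned, Snap25 was in 47.4% and 31.5%, while at least 1 pan-neuronal UMI was in 89.7% and 90.6%. The part of non-neuronal or single-UMI cells in these differences was not tested. The shares for Sst overlapped, at 8.11% (3.77 to 14.8) and 8.01% (5.70 to 10.9).

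In the other direction, Otp and Slc6a5 were seen only in libraries 4 to 9, while Gata2 was found in 3 of 111 and in 3 of 462 cells. Otp, a homeobox gene of hypothalamic neurons, was found in 0 of 111 and in 26 of 462 cells (5.63%, 3.71 to 8.14), from all 6 libraries. Slc6a5, the glycine transporter of inhibitory neurons in the brainstem and spinal cord, was found in 0 of 111 and in 12 of 462 cells, all in libraries 7 to 9. By the same limit of 3 counts, 0 of 111 allows a share of up to 2.70%, so the difference in Slc6a5 (2.60% of 462 cells) was not detectable at this depth. Pituitary transcripts differed between these libraries: Gh, the pituitary growth hormone, was found in every cell meeting the rule in libraries 4 to 6, in 0 of those in libraries 7 to 9 and in 3 of 111 here. Whether free RNA or other cells brought them was not tested.

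**Figure D5:**
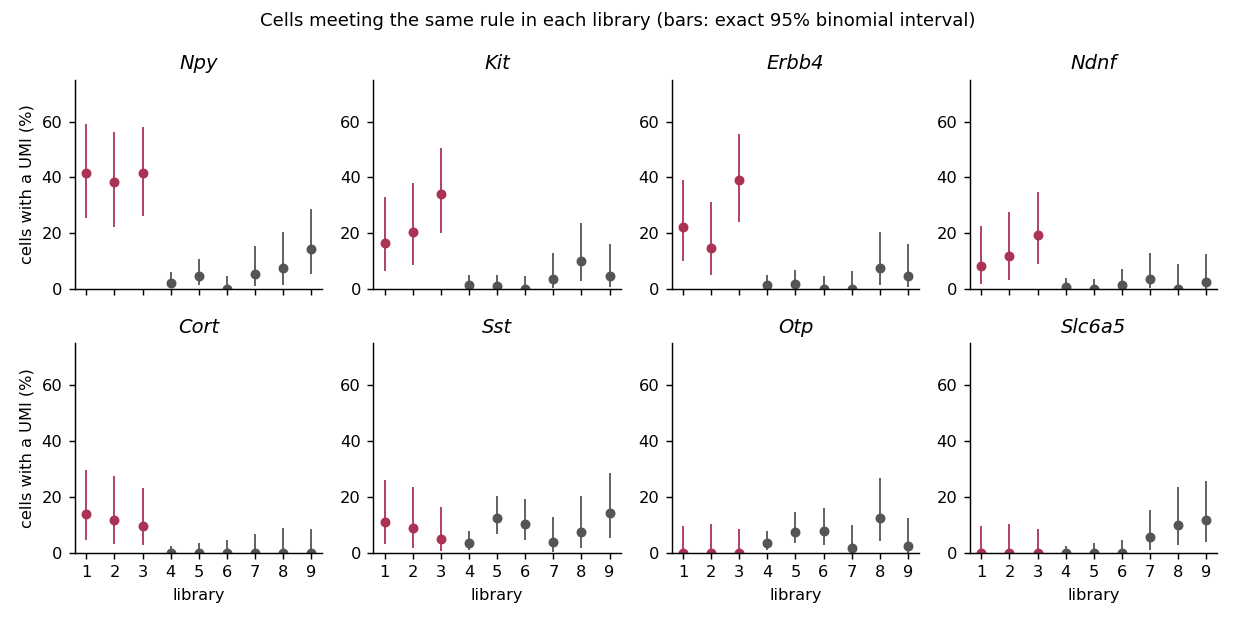
Share of cells with at least 1 UMI (y axis, percent, bars exact 95% binomial intervals) among the cells that meet the rule in each of the 9 libraries (x axis), 1 panel per gene; red marks libraries 1 to 3. Npy, Kit, Erbb4 and Cort are highest in libraries 1 to 3, Sst runs from 3.47% to 14.3% with no such split, and Otp and Slc6a5 are found only in libraries 4 to 9.

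Between libraries 1, 2 and 3 the GABAergic-gene cells were compared gene by gene, as values of 1 library each. Of 413 genes with 30 or more UMIs, 126 (30.5%) differed at least 2-fold between the highest and the lowest library, and the median ratio was 1.65. The 6 largest ratios were those of Cd74, Ly6c1, Ndufb4, Vip, Cntnap2 and Crip1. All 37 Cd74 UMIs, and 11, 17 and 12 UMIs of H2-Aa, H2-Ab1 and H2-Eb1, which act with Cd74 in antigen presentation, came from 1 cell of library 3 with 780 UMIs, 1 Gad2 UMI, 26 microglia-list UMIs and 0 pan-neuronal UMIs. Ly6c1, an endothelial gene, had 0, 6 and 32 UMIs; 7 of the 10 endothelial genes were at 0 in library 1 and 0 were at 0 in library 3, whose endothelial list summed to 467 and 3001 CPM. Vip had 1, 9 and 21 UMIs, 18 of the last in 1 cell. Crip1 had 23, 4 and 79 UMIs in 11 cells, up to 29 in 1 of them.

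Ndufb4, a subunit of respiratory complex I, and Cntnap2, a neurexin-like adhesion protein, were not carried by single cells. Ndufb4 was at 389 CPM (187 to 715), 0 CPM (up to 189) and 396 CPM (245 to 606) in libraries 1, 2 and 3, while in Slc17a7 cells it was at 428, 375 and 411 CPM. Cntnap2 was at 38.9 CPM (0.985 to 217), 409 (177 to 806) and 396 (245 to 606), while in Slc17a7 cells it was at 69.8, 49.3 and 59.5 CPM. Immediate early genes summed to 661 CPM (385 to 1059), 1125 (705 to 1703) and 547 (367 to 786), with intervals that overlapped, and clock genes to 1711, 1687 and 1567 CPM. Among genes that the study's text names for the sleep groups, Mt1, a metallothionein, was at 2917 CPM (2294 to 3656), 3936 (3106 to 4919) and 1906 (1553 to 2317). It was also highest in library 2 in Slc17a7 cells (833, 1317 and 670 CPM) and in all other cells (8623, 11516 and 8862 CPM).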

How the data were processed

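Single-cell libraries were prepared by the authors with 10x Chromium v2 chemistry, 3 mice pooled per library, and aligned and counted with Cell Ranger 2.2.0 on GRCm38, per the submitters' processing notes and the study's methods; the notes also list R 3.5.3. The authors deposited 1 table of UMI counts for 18634 genes and 29571 filtered cells, not normalized. Library codes are not tied to the 9 labelled samples in the labels, so libraries were numbered 1 to 9 in table order and no region or sleep group was compared.

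UMI counts were summed over the cells of each class and library and expressed as CPM, with exact Poisson intervals; shares of cells carry exact Clopper-Pearson intervals, at 95%. UMIs mark molecules, and the intervals cover counting error only. Ratios used CPM + 10 and genes with 20 or more UMIs. The members and gene lists were chosen with earlier results of these data known. Genes were named by list, and as the 15 highest and 10 lowest called ratios and the 6 largest ratios between libraries with 30 or more UMIs. Microglia-gated and endothelial-gated cells had 5 or more UMIs of those lists. Thinning drew 500 UMIs per cell. A doublet caller (scanpy 1.11.5) marked 0.283% of 8495 cells, too few to have worked, so no doublets were removed. Promoter windows came from RefSeq on GRCm38.p6. Python 3.11.15, numpy 2.4.6, scipy 1.17.1 and pandas 2.3.3 were used. Scripts were tested on simulated data. Alternatives changed the depth, the number of GABA-gene UMIs, the filter, the pseudocount, the totals, free RNA and the libraries used. Results for some genes are not reported here.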

Additional observations from a re-analysis of the deposited data

How the results depend on the processing

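With cells of at least 1000 UMIs, 32 cells remained, 96.9% of them with 2 or more pan-neuronal UMIs, 65.6% with Npy and 15.6% with Sst, and 110 genes were higher and 1388 lower. With 2 or more GABA-gene UMIs, 60 cells remained, 100% with 2 or more pan-neuronal UMIs and 63.3% with Npy. With 3 or more, an alternative added after seeing the data, 43 cells remained, 100% with 2 or more pan-neuronal UMIs and 69.8% with Npy, and 1381 genes were lower. In cells led by the pan-neuronal list, also added, Npy was found in 53.2%. With 1 CPM added in place of 10, 1600 genes were lower. Leaving out each library in turn, so that calls needed 2 libraries and not 3, gave 303 to 373 genes higher and 1308 to 1793 lower; without library 3, 8 of the 15 highest genes stayed called, and Adarb2 was not found.

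Of the 188 higher genes, 104 were shared at 2 or more GABA-gene UMIs, and 724 of the 810 lower; 2 genes were called the opposite way. At 1000 UMIs, 8 of the 15 highest genes stayed called, without Kit, Vip, Nxph1, Ndnf, Pvalb, Sema5a and Hapln1. With only genes of 50 or more UMIs tested, 7 of the 15 stayed called. The median log2 ratio of the synaptic vesicle list went from -0.20 to 0.16 at 2 or more GABA-gene UMIs, 0.11 at 1000 UMIs and 0.06 in cells led by the pan-neuronal list. That of voltage-gated channels went from 0.23 to -0.19 at 1000 UMIs. The astrocyte list went from 1.24 to -0.35 and the microglia list from 1.44 to -0.52 at 2 or more GABA-gene UMIs. The causes were not tested. No paired analysis of sleep groups was possible because there is 1 library per group and the library codes carry no replicate numbers. Depth limits the lower calls, since 1 UMI was worth 18.9 to 51.1 CPM.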
